A study of Homo sapiens with 6 samples.

Results

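Histone lysine methylation is set by methyltransferases, removed by demethylases and read by proteins that bind methylated tails. The 52 genes described here are 19 demethylases and related oxygenases, 27 methyltransferases, and 6 readers and silencing factors of histone H3 lysine 9 (H3K9). They were taken by symbol from the 60664 genes of the deposited count table, each matched 1 row, and all 52 passed the filter on low counts, RIOX1 only through the KDM4A plasmid group. RNA was sequenced in 6 libraries from cells labelled HCT8, a human colorectal cancer line grown in DMEM with serum. In 3 of them the cells, labelled WT, had received a control plasmid, and in the other 3, labelled KDM4A-overexpressing, a KDM4A overexpression plasmid. All carry the same batch number, and the plasmid's promoter and the time after transfection are not stated in the labels.

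Methylation of H3K4 by the KMT2 and SETD1 enzymes marks active promoters and enhancers, and that of H3K36 by SETD2 and the NSD enzymes marks transcribed genes. Methylation of H3K9 by SUV39H, SETDB and EHMT enzymes, and of H3K27 by EZH1 or EZH2 within Polycomb repressive complex 2 (PRC2), marks silenced chromatin. KDM4A removes methyl groups from H3K9 and H3K36 with a Jumonji C (JmjC) domain that uses iron and 2-oxoglutarate, whereas KDM1A and KDM1B use flavin.

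Levels are CPM, counts scaled to a common effective library size, and fold changes are log2 values of the KDM4A plasmid group over the control plasmid group with their standard error (SE). Tests are edgeR's quasi-likelihood test with Benjamini-Hochberg adjustment over the 17147 genes tested, at a threshold of 0.05. Library totals ran from 14284240 to 23905980 counts. Whether replicate libraries stem from separate cultures is not stated, and p-values therefore cover only the spread among these 6 libraries, which may be technical. Libraries of the same group correlated at r = 0.993 to 0.995 across genes and libraries of different groups at 0.895 to 0.906 (Pearson, log2 CPM; genes are not independent replicates).

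The labelled cell type was read from marker lists that earlier results of these data had in part shown to differ between the groups. Counts from these lists are therefore a description, not an independent check. Of 12 colorectal epithelial markers 10 could be tested and 10 were higher with the KDM4A plasmid. Their summed level was 265 to 279.8 CPM in the control libraries and 3570.2 to 3825 CPM in the KDM4A plasmid libraries. None was at 0 counts in either group, although KRT20 and GPA33 were too low to test. CDX1, with 5, 3 and 2 control counts, passed the filter only through the KDM4A plasmid group and so had to be higher. EPCAM, an epithelial adhesion gene, stood at 18.7 ± 0.992 and 331 ± 17.8 CPM, and KRT19, an epithelial keratin, at 10.2 ± 0.804 and 254 ± 14.0 CPM (SD, n = 3). All 7 genes of a list of embryonic kidney and neural developmental genes were lower (6 to 7 in fits that leave out 1 library). The list had a summed level of 2365 to 2731 CPM in controls and 468 to 501 CPM with the KDM4A plasmid. IRS4, an insulin receptor substrate gene that dominates this list, stood at 2167, 2345 and 1942 CPM in controls and 331, 322 and 316 CPM with the KDM4A plasmid. Of 6 mesenchymal genes, of which 5 could be tested, 2 were higher and 2 lower. PDGFRB, 1 of the 2 higher, passed the filter only through the KDM4A plasmid group (5, 7 and 2 against 11, 23 and 8 counts). The count of higher ones was 1 on leaving out any library but control plasmid replicate 3. The 5 immune genes summed to at most 4.94 CPM and the 4 endothelial genes to at most 1.11 CPM in any library. The libraries labelled control are thus low in markers of the labelled tissue, and whether both groups are the same cell line cannot be told from these files. Cell identity and plasmid cannot be told apart in this design, so each fold change below is a difference between libraries labelled control plasmid and KDM4A plasmid, not a measured effect of KDM4A. In bulk RNA, fewer cells of a type and less RNA per cell cannot be told apart.

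Of the 52 genes, 14, RIOX1 among them, were higher with the KDM4A plasmid, against 40.0% of all genes tested, 30 were lower, against 38.6%, and 8 did not pass, where 78.6% of all genes tested passed in either direction. As shares of the members these are 26.9% and 57.7%. Their median log2 fold change was -0.31, beside 0.03 over all genes tested. At 2-fold or more, 2 members were higher (16.4% of all genes tested) and 5 lower (13.6%). The 2 are RIOX1, which passed the filter only through the KDM4A plasmid group, and KDM4A, the gene of the plasmid. No other member rose 2-fold. Both are also among the 14 on the higher side and among the 6 demethylases and oxygenases that rose. Of the 5 lower, KDM7A alone was past 2-fold with the length trend removed (-1.15), and none was with GC and length trends removed. The libraries of the groups did not overlap for 14 members on the higher side, where 40.4% of all genes tested were so placed, and for 30 on the lower side, against 39.3% (79.7% in either direction). By class, 11 of the 19 demethylases and oxygenases fell and 6 rose (median -0.26), and 18 of the 27 methyltransferases fell and 5 rose (median -0.50). Of the 6 readers and silencing factors 3 were higher, 1 was lower and 2 did not pass (median 0.22). These shares were not tested against each other.

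**Figure D1:**
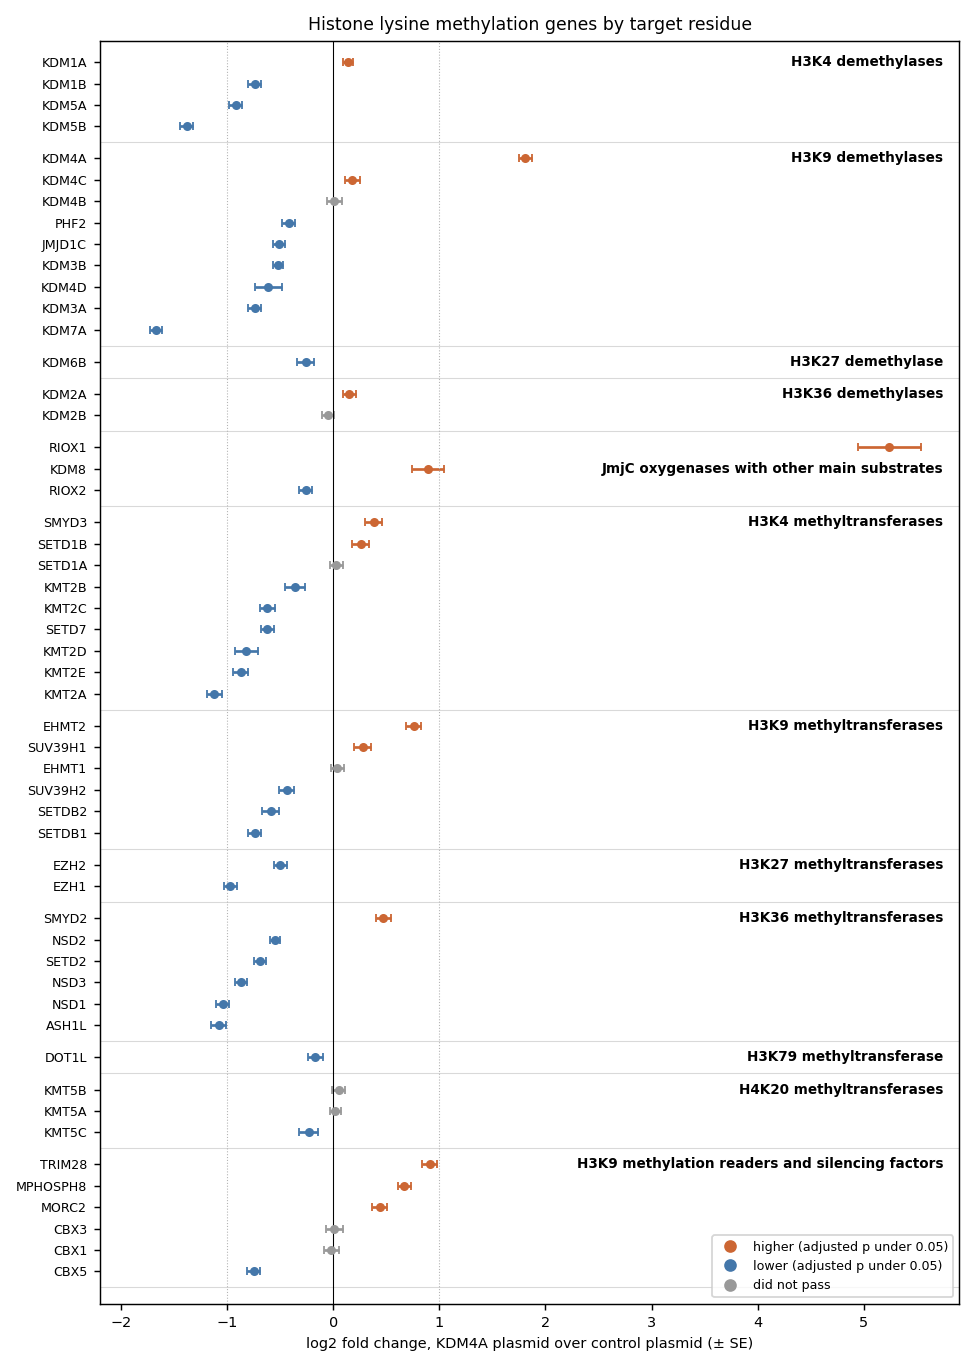
Log2 fold change (KDM4A plasmid over control plasmid) with its SE for each of the 52 genes, arranged by target residue. Of all members 14 lie to the right and 30 to the left past the test, with RIOX1 at 5.24 and KDM7A at -1.67 at the ends.

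KDM4A itself (ENSG00000066135, chromosome 1, 43650149 to 43705518, plus strand, GRCh38.p13) is the gene carried by the plasmid. It stood at 42.9, 45.9 and 45.3 CPM in the control libraries and at 152, 157 and 159.9 CPM in the KDM4A plasmid libraries (log2 fold change 1.81, SE 0.06, edgeR adjusted p = 7.2e-15). The lowest KDM4A plasmid library lay far above the highest control. Its log2 fold change ranked 1461 from the top of the 17147 genes tested, so the rise of KDM4A alone does not check the labels. Counts do not separate plasmid transcripts from those of the cells' own gene.

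Its paralogues KDM4B, KDM4C and KDM4D share the JmjC domain, and their transcripts were compared letter by letter to see whether reads of KDM4A could be counted for them. No stretch of 50 bases of the KDM4A coding sequence (3192 bases, the longest GENCODE 29 transcript on GRCh38) was identical in KDM4B, KDM4C or KDM4D. The longest identical runs, read from the same transcripts, are shown because they bear on how far KDM4A reads can be told from those of its paralogues; capitals mark the 21 bases that KDM4D shares too.
KDM4A and KDM4B: TACAGCATCAACTACCTGCACtttgg
KDM4A and KDM4C: tttggcatgtggaagac
These runs of 26 and 17 bases are the longest shared with KDM4A, and an exact read of 50 coding bases of KDM4A would therefore match none of the 3 paralogues.

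KDM4B, which acts on the same marks, stood at 33.2, 34.7 and 30.9 CPM in controls and 33.5, 32.6 and 33.0 CPM with the plasmid. The groups overlapped and the test was not passed (log2 fold change 0.01, SE 0.07, edgeR adjusted p = 0.939), but it passed in opposite directions with the length trend removed (0.20) and with GC and length trends removed (-0.29). For KDM4C the libraries read 22.0, 22.7 and 22.4 CPM and 23.3, 26.5 and 26.3 CPM, a separation by a narrow margin (log2 fold change 0.18, SE 0.07, edgeR adjusted p = 0.0322). That call was lost in 10 of 18 alternative settings, where its log2 fold change lay between 0.14 and 0.19. They include leaving out control plasmid replicate 1 (0.15), 2 (0.19) or 3 (0.17), or KDM4A plasmid replicate 2 (0.15) or 3 (0.17). The value was 0.29 and passed with GC and length trends removed. KDM4D, a shorter family member without the PHD and Tudor domains of the others, went from 6.98, 6.62 and 6.27 CPM to 4.42, 4.75 and 3.67 CPM (log2 fold change -0.61, SE 0.13, edgeR adjusted p = 3.3e-04), with the lowest control above the highest KDM4A plasmid library.

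Per kilobase of exon, KDM4A made up 41.7%, 42.8% and 44.1% of the summed KDM4 family level in the control libraries and 72.5%, 72.1% and 73.0% in the KDM4A plasmid libraries. The shares were 42.9% ± 1.18 and 72.5% ± 0.443 (SD, n = 3), an exact two-sided permutation p = 0.1, the smallest that 3 against 3 allows. The summed family level went from 23.2 ± 0.567 to 48.0 ± 1.11 CPM per kilobase (SD, n = 3). KDM4A was the family member with the highest level per kilobase in every library of either group.

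**Figure D2:**
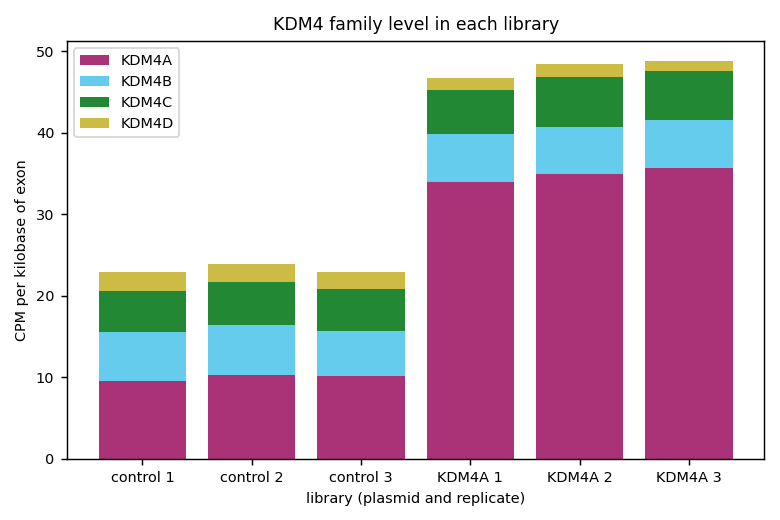
CPM per kilobase of exon of the KDM4 family in each of the 6 libraries, stacked by gene. KDM4A takes 41.7% to 44.1% of the bar in the control libraries and 72.1% to 73.0% in the KDM4A plasmid libraries, while the KDM4B and KDM4C parts keep similar heights.

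Among the other H3K9 demethylases, 5 of 5 were lower, beside 38.6% of all genes tested. Of all genes in the top length quintile (exons over 5316 bases) 65.98% were lower. That quintile holds all of these enzymes but KDM3A (4667 bases), which is in the quintile below it, where 48.4% were lower. KDM7A, a JmjC enzyme that removes lower methylation states of H3K9 and H3K27, had the largest fall of all members. It stood at 94.5, 102 and 90.3 CPM in controls and 28.8, 30.7 and 30.3 CPM with the KDM4A plasmid (log2 fold change -1.67, SE 0.06, edgeR adjusted p = 9.9e-14), and the highest KDM4A plasmid library was far below the lowest control. KDM3A, an androgen receptor coactivator that removes mono- and dimethylation, fell from 86.6 ± 0.551 to 51.8 ± 2.05 CPM (SD, n = 3). Its paralogues KDM3B (-0.52, SE 0.05) and JMJD1C (-0.51, SE 0.06) also fell, and PHF2, a related demethylase with a PHD finger that binds H3K4 trimethylation, fell by 0.42 on the log2 scale. JMJD1C had a log2 fold change of 0.34 once GC and length trends were removed, so its direction depends on that step.

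Promoter windows from RefSeq (GRCh38.p14, 250 bases before to 50 after the start) are shown for KDM7A, which fell most, and for KDM4A, the member with the largest rise that has an entry; RIOX1, which rose most, is named only. Capitals mark each CG dinucleotide, and both are written 5′ to 3′ on the gene's strand.
KDM7A, chr7:140176934-140177233, minus strand: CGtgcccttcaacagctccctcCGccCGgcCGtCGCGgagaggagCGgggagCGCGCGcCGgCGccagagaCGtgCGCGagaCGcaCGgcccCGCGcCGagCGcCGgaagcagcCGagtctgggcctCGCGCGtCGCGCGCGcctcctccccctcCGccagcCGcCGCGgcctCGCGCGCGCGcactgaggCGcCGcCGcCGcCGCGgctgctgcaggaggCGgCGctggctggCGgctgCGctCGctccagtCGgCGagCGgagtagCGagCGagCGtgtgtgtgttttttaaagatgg
KDM4A, chr1:43649899-43650198, plus strand: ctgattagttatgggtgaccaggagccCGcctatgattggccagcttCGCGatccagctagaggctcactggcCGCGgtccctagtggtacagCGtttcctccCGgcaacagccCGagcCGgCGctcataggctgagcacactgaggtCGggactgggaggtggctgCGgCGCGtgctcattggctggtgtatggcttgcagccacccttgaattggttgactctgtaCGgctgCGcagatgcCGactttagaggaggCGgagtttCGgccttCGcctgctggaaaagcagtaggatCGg
The KDM7A window held 56 CG dinucleotides and 77.0% G and C, a CG count that 0.3% of the 35116 windows in the table reach. The KDM4A window held 21, a count that 39.5% of windows reach, and 61.0% G and C. The letters GGGCGG, searched on both strands, were in the KDM7A window and not in that of KDM4A, and 45.0% of all windows hold them. CCAAT, searched likewise, was in the KDM4A window and not in that of KDM7A, with 34.6% of all windows holding it, and TATAAA was in neither (11.5% of all windows). For each of the 46 members with an entry the window with most CG was taken. Counts in these windows ran from 17 to 63 with a median of 34.5. The median over all windows was 14, but it was taken without choosing the richest window of each gene. The medians are therefore unlike measures, and the choice of window raises that of the members. In these chosen windows of the 46 members, 39 held GGGCGG, 16 held CCAAT and 0 held TATAAA. The shares of all windows given above involve no such choice and are not a like measure for these counts.

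Among H3K4 demethylases 3 of 4 fell, beside 38.6% of all genes tested. KDM5A and KDM5B are in the top length quintile, where 65.98% of all genes tested were lower. KDM1B, with 4538 bases of exon, is in the quintile below it, where 48.4% were lower. KDM5B, a JmjC enzyme that removes H3K4 di- and trimethylation and acts as a repressor, stood at 168, 178 and 160.0 CPM in controls and 67.2, 64.8 and 62.3 CPM with the KDM4A plasmid (log2 fold change -1.38, SE 0.06, edgeR adjusted p = 4.5e-13). Every KDM4A plasmid library lay below every control by more than 2-fold. Its paralogue KDM5A, first found as a partner of the retinoblastoma protein, went from 116 ± 7.71 to 61.3 ± 2.996 CPM (SD, n = 3), and the flavin enzyme KDM1B from 79.5 ± 3.31 to 47.5 ± 0.453 CPM. The fall of KDM5A no longer passed once GC and length trends were removed (log2 fold change -0.06, edgeR adjusted p = 0.206).

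KDM1A, the catalytic subunit of the CoREST complex, was the most abundant H3K4 demethylase per length, at 72.5 CPM per kilobase in controls and 79.8 with the KDM4A plasmid. Its libraries read 222, 220.1 and 229.7 CPM and 252, 246 and 241 CPM (log2 fold change 0.14, SE 0.05, edgeR adjusted p = 0.0189), a small difference with groups that did not overlap. The call was lost in 7 of 18 alternative settings, among them leaving out control plasmid replicate 1 (0.11) or 2 (0.12) or KDM4A plasmid replicate 1 (0.13) or 2 (0.14). The sign turned with the length trend removed (-0.08) and with GC and length trends removed (-0.16). KDM6B, the H3K27 demethylase of the list, stood at 22.4, 24.2 and 20.6 CPM and 17.3, 19.1 and 19.6 CPM (log2 fold change -0.26, SE 0.08, edgeR adjusted p = 0.00890), again without overlap. Its log2 fold change was 0.07 and did not pass with the length trend removed, and without control plasmid replicate 2 it was -0.21 and did not pass. With GC and length trends removed KDM6B was lower and passed (-0.45).

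Of the H3K36 demethylases 1 passed, by a small difference, where 78.6% of all genes tested passed. KDM2A, which removes H3K36 dimethylation and binds unmethylated CpG islands through a CXXC domain, read 90.5, 92.0 and 83.3 CPM in controls and 94.1, 100.3 and 100.01 CPM with the KDM4A plasmid (log2 fold change 0.15, SE 0.06, edgeR adjusted p = 0.0247). The call was lost in 7 of 18 settings, among them leaving out control plasmid replicate 1 (0.15) or 3 (0.09) or KDM4A plasmid replicate 2 (0.14) or 3 (0.14). It was larger with the length trend removed (0.53) and with GC and length trends removed (0.43), and passed in both. KDM2B, its paralogue in a variant Polycomb complex, did not pass (log2 fold change -0.05, SE 0.06, edgeR adjusted p = 0.429), but did at -0.25 with GC and length trends removed.

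The 3 JmjC oxygenases, whose main known substrates include ribosomal or other proteins, moved apart. RIOX1 (ENSG00000170468, chromosome 14, 73490933 to 73493394, plus strand), which hydroxylates the ribosomal protein RPL8, had 0, 3 and 8 counts in the control libraries and 124, 165 and 94 in the KDM4A plasmid libraries. On the CPM scale these are 0, 0.148 and 0.351 against 7.22, 6.99 and 6.63. RIOX1 passed the filter only through the group where it is high and so had to differ, and its values are a description, with no test given. Its fitted log2 fold change of 5.24 rests on 11 control counts in all, and was 4.72 without control plasmid replicate 1 and 6.37 without control plasmid replicate 3. KDM8, a JmjC hydroxylase once reported as an H3K36 demethylase, was low in both groups, at 2.81 ± 0.321 and 5.13 ± 0.563 CPM (log2 fold change 0.89, SE 0.15, edgeR adjusted p = 2.9e-05), a rise that no longer passed once GC and length trends were removed (log2 fold change 0.21). RIOX2, which hydroxylates RPL27A, read 82.3, 85.2 and 90.0 CPM and 74.4, 71.9 and 68.3 CPM (log2 fold change -0.26, SE 0.06, edgeR adjusted p = 4.9e-04). Its sign turned with GC and length trends removed (0.12).

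**Figure D3:**
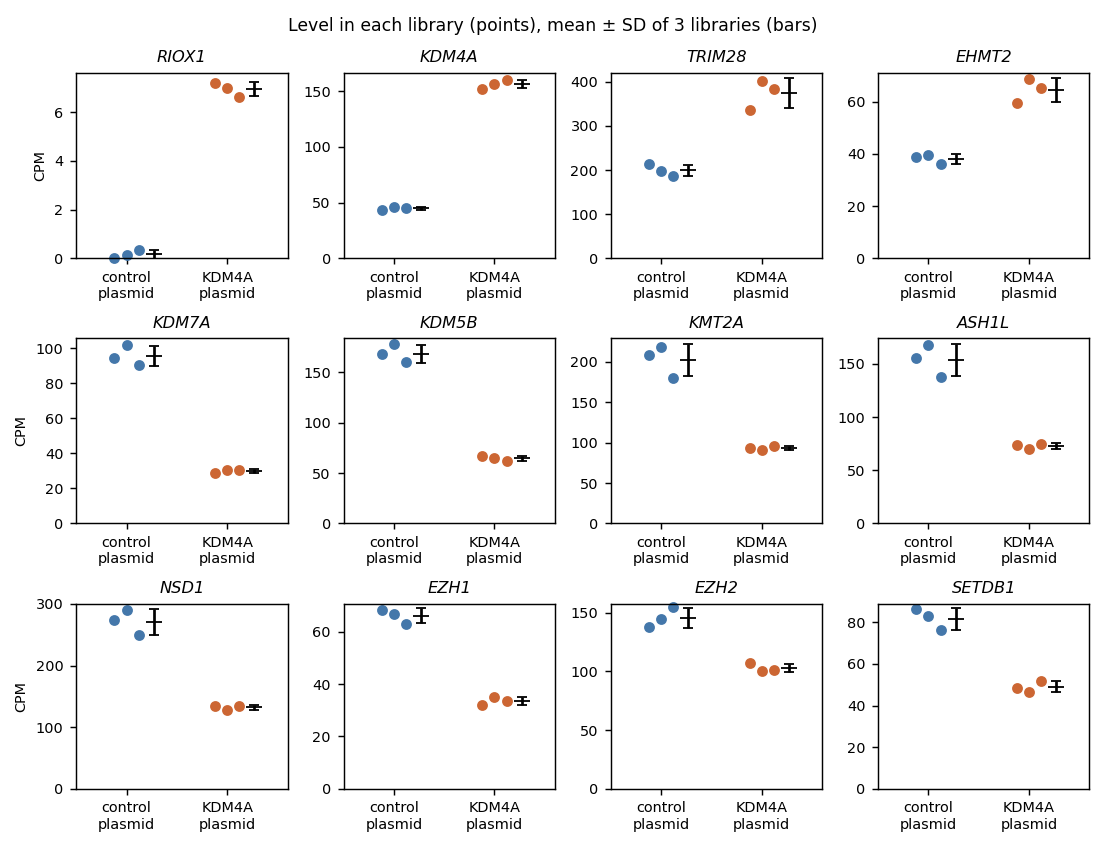
CPM in each control plasmid library and KDM4A plasmid library for 12 members, with mean ± SD of 3 libraries; each panel has its own axis from 0. No panel has overlapping groups, and the falls of KDM7A, KDM5B, KMT2A, ASH1L and NSD1 exceed 2-fold before length and GC trends are removed, and none does after (-0.74, -0.66, -0.23, -0.20 and -0.26 on the log2 scale).

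Among H3K4 methyltransferases 6 of 9 fell, 2 rose and 1 did not pass. The share of all genes tested that fell was 38.6%, and 65.98% in the top length quintile, which holds all of these enzymes but SMYD3. KMT2A, the MLL protein whose gene is rearranged in leukaemias, stood at 209, 219 and 179.7 CPM in controls and 93.0, 90.5 and 95.8 CPM with the KDM4A plasmid (log2 fold change -1.12, SE 0.07, edgeR adjusted p = 4.7e-11). The groups stood well apart, with control replicate 3 the lowest of the controls. KMT2E, a family member with a SET domain but little known enzyme activity, fell by 0.87 (SE 0.07). KMT2D and KMT2C, which methylate H3K4 at enhancers, had log2 fold changes of -0.82 and -0.62, and KMT2B one of -0.36. These values turned to 0.07, 0.19 and 0.11 with the length trend removed, the exon lengths being 20635, 16860 and 8485 bases. With GC and length trends removed KMT2D (-0.34) and KMT2B (-0.44) were lower and KMT2C (0.36) was higher, and each passed.

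SETD7, which also methylates proteins other than histones, was the most abundant H3K4 methyltransferase per length in either group, at 23.2 and 15.2 CPM per kilobase. It read 161, 165 and 148 CPM in controls and 103, 105 and 101 CPM with the KDM4A plasmid (log2 fold change -0.62, SE 0.06, edgeR adjusted p = 1.3e-08), groups that stood well apart. The value was -0.09 and did not pass with GC and length trends removed. SMYD3, whose best known substrate is the kinase MAP3K2, was higher, at 14.7, 14.7 and 15.4 CPM and 20.1, 20.1 and 17.9 CPM (log2 fold change 0.38, SE 0.08, edgeR adjusted p = 4.4e-04), but had a value of -0.08 with the length trend removed. SETD1B, a catalytic subunit of a COMPASS complex, rose by 0.26 (SE 0.08), and by 0.73 with the length trend removed. With GC and length trends removed SETD1B rose by 0.24. Its paralogue SETD1A did not pass (log2 fold change 0.03, SE 0.06, edgeR adjusted p = 0.690), but passed in opposite directions with the length trend removed (0.27) and with GC and length trends removed (-0.25).

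Of the 6 H3K9 methyltransferases 2 were higher, 3 lower and 1 did not pass, where 40.0% of all genes tested were higher and 38.6% lower. EHMT2 (G9a), which makes H3K9 dimethylation in euchromatin, stood at 38.8, 39.6 and 35.9 CPM in controls and 59.3, 68.6 and 65.4 CPM with the KDM4A plasmid (log2 fold change 0.76, SE 0.07, edgeR adjusted p = 6.9e-09). Its partner in the same heterodimer, EHMT1 (GLP), did not pass, at 51.2 ± 1.27 and 52.5 ± 3.30 CPM (log2 fold change 0.04, SE 0.06, edgeR adjusted p = 0.556), and the difference between the 2 genes was not tested. SETDB1, the enzyme recruited by TRIM28 to make H3K9 trimethylation at silenced repeats, went the opposite way to EHMT2, from 86.3, 82.8 and 76.1 CPM to 48.5, 46.7 and 51.9 CPM (log2 fold change -0.74, SE 0.06, edgeR adjusted p = 6.4e-09). Its groups did not overlap. The related SETDB2 fell by 0.59 (SE 0.08), with a value of 0.02 once GC and length trends were removed.

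The SUV39H enzymes, which make H3K9 trimethylation in pericentromeric heterochromatin, had values of opposite sign. SUV39H2 read 56.8, 65.4 and 68.4 CPM in controls and 45.5, 48.0 and 47.4 CPM with the KDM4A plasmid (log2 fold change -0.44, SE 0.07, edgeR adjusted p = 1.1e-05). It was the H3K9 methyltransferase with the highest level per kilobase in controls (20.8), whereas EHMT2 was so with the KDM4A plasmid (16.2). SUV39H1 was higher (log2 fold change 0.28, SE 0.08, edgeR adjusted p = 0.00371), a direction that turned to -0.36 with GC and length trends removed.

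Readers and silencing factors of H3K9 methylation were higher in 3 of 6 cases, beside 40.0% of all genes tested. TRIM28 (KAP1), the corepressor that KRAB zinc finger proteins bind, stood at 213, 197 and 187 CPM in controls and 336, 402 and 384 CPM with the KDM4A plasmid (log2 fold change 0.91, SE 0.07, edgeR adjusted p = 1.0e-09). Its lowest KDM4A plasmid library was well above its highest control. MPHOSPH8, the chromodomain subunit of the HUSH silencing complex, read 53.4 ± 2.35 CPM in controls and 85.2 ± 3.78 CPM with the KDM4A plasmid (log2 fold change 0.67, SE 0.06, edgeR adjusted p = 8.3e-09), and MORC2, an ATPase that HUSH recruits, read 48.0 ± 4.53 and 65.1 ± 1.02 CPM (log2 fold change 0.44, SE 0.07, edgeR adjusted p = 7.6e-06), both as SD with n = 3.

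The heterochromatin protein 1 (HP1) genes differed among themselves. CBX5 (HP1 alpha) fell, from 365, 369.7 and 319 CPM to 217, 201 and 207 CPM (log2 fold change -0.75, SE 0.06, edgeR adjusted p = 3.8e-09). With the length trend removed its value was -0.10 and did not pass, and with GC removed as well it was 0.19. CBX3 (HP1 gamma) had the highest level per kilobase of all 52 members, at 217 CPM per kilobase in controls and 218 with the KDM4A plasmid. Its controls spread widely, with 408, 413 and 523 CPM against 460.1, 445 and 445 CPM, so the groups overlapped (log2 fold change 0.01, SE 0.08, edgeR adjusted p = 0.937). Without control plasmid replicate 3, the highest of them, it passed with 0.12 (edgeR adjusted p = 0.00558). CBX1 (HP1 beta) did not pass either (log2 fold change -0.02, SE 0.07, edgeR adjusted p = 0.764). With the length trend removed both were lower and passed, at -0.37 for CBX3 and -0.38 for CBX1. With GC and length trends removed CBX3 had 0.01 and did not pass, whereas CBX1 had -0.32 and passed. The table also lists 9 pseudogene copies of CBX3 with 545 counts summed over the controls and 423 with the KDM4A plasmid, so reads of these near-identical copies may be split.

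Both H3K27 methyltransferases were lower, as were 38.6% of all genes tested. EZH2, the PRC2 enzyme of dividing cells, stood at 138, 144 and 155 CPM in controls and 107, 101 and 101 CPM with the KDM4A plasmid (log2 fold change -0.50, SE 0.06, edgeR adjusted p = 2.8e-07). EZH1, the alternative subunit common in resting cells, went from 68.5, 66.9 and 63.0 CPM to 31.9, 35.2 and 33.7 CPM (log2 fold change -0.97, SE 0.06, edgeR adjusted p = 8.9e-11), with every KDM4A plasmid library far below every control. Per kilobase, EZH2 made up 77.9%, 79.03% and 81.1% of the pair in the control libraries and 85.4%, 83.3% and 83.9% with the KDM4A plasmid. The means were 79.3% ± 1.64 and 84.2% ± 1.08 (SD, n = 3; exact two-sided permutation p = 0.1, the smallest possible). With the length trend removed the log2 fold changes lay close together, at -0.80 for EZH2 and -0.90 for EZH1. With GC and length trends removed they were -0.54 and -0.96. The share itself was not computed in these settings.

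Of the 6 H3K36 methyltransferases 5 fell, beside 38.6% of all genes tested and 65.98% of those in the top length quintile. That quintile holds all of these enzymes but SMYD2. NSD1, which makes H3K36 dimethylation and is mutated in Sotos syndrome, stood at 274, 291 and 249 CPM in controls and 134, 128 and 135 CPM with the KDM4A plasmid (log2 fold change -1.04, SE 0.06, edgeR adjusted p = 3.3e-11). ASH1L, another dimethyltransferase, fell from 156, 168 and 138 CPM to 73.8, 70.2 and 75.0 CPM (log2 fold change -1.08, SE 0.07, edgeR adjusted p = 9.9e-11). For both genes every control lay well above every KDM4A plasmid library. NSD2, the most abundant of the class per length in controls (33.7 CPM per kilobase), read 258, 266 and 241 CPM and 172, 177 and 173 CPM (log2 fold change -0.55, SE 0.05, edgeR adjusted p = 3.2e-08).

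SETD2, the enzyme that makes H3K36 trimethylation behind RNA polymerase II, fell by 0.69 (SE 0.06), and NSD3 by 0.87 (SE 0.06). With GC and length trends removed, the values of NSD2, SETD2 and NSD3 were -0.01, 0.04 and 0.03 and none passed. SMYD2, which methylates p53 as well as H3K36, was the exception, at 37.8, 41.0 and 42.6 CPM in controls and 61.3, 50.97 and 56.4 CPM with the KDM4A plasmid (log2 fold change 0.47, SE 0.07, edgeR adjusted p = 9.7e-06). Its value was 0.05 and did not pass with the length trend removed.

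DOT1L, the H3K79 methyltransferase, read 39.8, 41.9 and 38.0 CPM in controls and 32.2, 36.2 and 37.8 CPM with the KDM4A plasmid, groups that lay next to each other (log2 fold change -0.17, SE 0.07, edgeR adjusted p = 0.0323). Its call was lost in 7 of 18 settings, among them leaving out control plasmid replicate 1 (-0.19) or 2 (-0.14) or KDM4A plasmid replicate 1 (-0.10) or 2 (-0.19). DOT1L passed in opposite directions with the length trend removed (0.23) and with GC and length trends removed (-0.30). Of the H4K20 methyltransferases, KMT5A, which makes monomethylation during mitosis, stood at 91.0, 90.1 and 91.3 CPM and 92.0, 94.5 and 89.2 CPM and did not pass (log2 fold change 0.02, SE 0.05, edgeR adjusted p = 0.754), but did at -0.37 with GC and length trends removed. The table lists 3 pseudogene copies of it with 382 and 218 counts over the libraries of each group. KMT5B did not pass (log2 fold change 0.05, SE 0.06, edgeR adjusted p = 0.527), but did with the length trend removed (0.25) and with GC and length trends removed (0.58). KMT5C, which makes H4K20 trimethylation in heterochromatin, was lower, at 14.8, 15.9 and 15.2 CPM and 13.04, 14.0 and 11.6 CPM (log2 fold change -0.23, SE 0.09, edgeR adjusted p = 0.0256). The call was lost in 5 of 18 settings, among them leaving out control plasmid replicate 2 (-0.22) or KDM4A plasmid replicate 1 (-0.23) or 3 (-0.17). The value was larger with the length trend removed (-0.58) and with GC and length trends removed (-1.21).

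Several members share ground with a gene on the other strand, and the strand setting used in counting is not known here. Partners with more counts than the member itself in both groups were RNF34 for KDM2B, CERS2 for SETDB1, SRPK2 for KMT2E, AP3D1 for DOT1L and HNRNPA2B1 for CBX3. CERS2 counts were 7206 over the control libraries and 9615 over the KDM4A plasmid libraries, while SETDB1 counts were 5044 and 2670.

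Falls went with transcript length and base composition, over all genes and over the members. Exon length had a median of 5498 bases over the members and 2866 over all genes tested. In the top length quintile of all genes tested (over 5316 bases), 65.98% were lower and 21.2% higher with the KDM4A plasmid, and in the bottom quintile 21.3% were lower and 51.4% higher. Of the 52 members 27 are in the top quintile, of which 21 were lower and 3 higher, with a median of -0.59 beside -0.52 for all genes there. Across the 52 members the rank correlation of the log2 fold change with exon length was -0.65 and with GC share of the transcript 0.47, and over all genes tested -0.30 and 0.39 (Spearman; genes share the same 6 libraries). With the length trend removed, the median over all genes moved from 0.03 to -0.12, and 16 members were higher and 26 lower. These are 30.8% and 50% of the members, beside 32.7% and 44.1% of all genes tested in that setting. The members' median then stood 0.01 below that of all genes, where it was 0.34 below without this step. With GC and length trends removed it stood 0.06 below. There 26.9% of members were higher and 51.9% lower, beside 33.4% and 44.9% of all genes tested. In the GC-richest quintile 4 of 12 members were higher and 5 lower, beside 64.2% and 14.3% of all genes there (medians -0.02 and 0.58). In the GC-poorest quintile the medians were -0.51 for 5 members and -0.43 for all genes there.

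**Figure D4:**
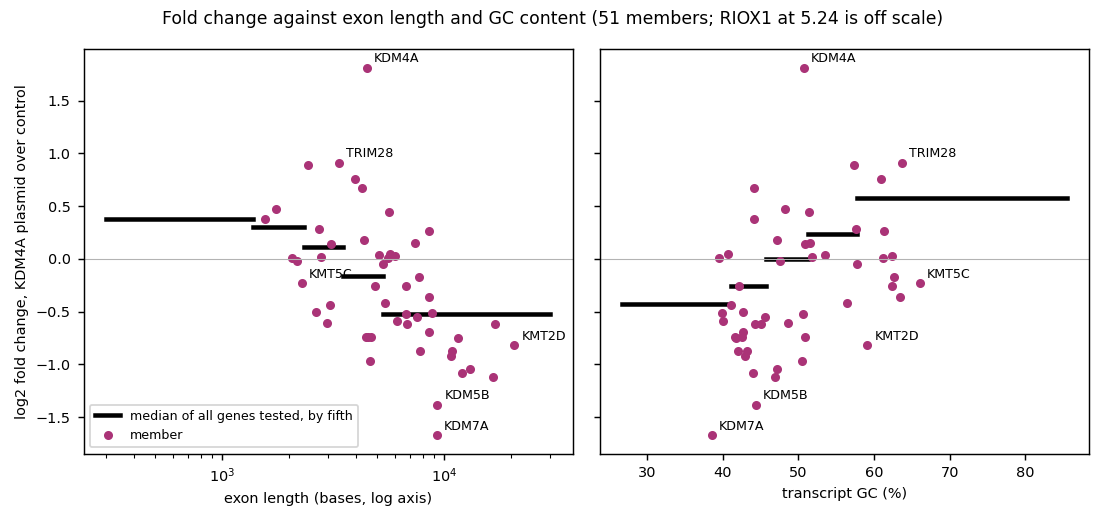
Log2 fold change of 51 members (points; RIOX1 at 5.24 is off scale) against exon length (log axis) and transcript GC content, with the median of all genes tested in each quintile (bars; the outer length quintiles are cut at the axis). The bars run from 0.38 in the shortest quintile to -0.52 in the longest, and from -0.43 in the GC-poorest quintile to 0.58 in the GC-richest.

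Direction and call were the same in each of the 18 alternative settings for 21 members, 6 higher and 15 lower. The share of all genes tested that kept both was not computed, so 21 cannot be set against it. The 6 were KDM4A, the gene of the plasmid, EHMT2, TRIM28, MPHOSPH8, MORC2 and RIOX1, the last with the limit of its filter given above. The 15 were the demethylases KDM1B, KDM3A, KDM3B, KDM4D, KDM5B, KDM7A and PHF2, and the methyltransferases ASH1L, EZH1, EZH2, KMT2A, KMT2E, NSD1, SETDB1 and SUV39H2. Their sizes were less stable than their calls. With GC and length trends removed the log2 fold change was 0.19 for TRIM28 and 0.24 for EHMT2 among those that rose. Among those that fell it was -0.74 for KDM7A, -0.66 for KDM5B, -0.39 for KDM1B and for KDM3A, -0.26 for KDM3B and for NSD1, -0.23 for KMT2A, -0.21 for KMT2E and -0.20 for ASH1L. The values of KDM4A (1.79), EZH1 (-0.96) and SETDB1 (-0.78) stayed close to those without this step.

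Partner genes of these enzymes were counted from lists outside the 52. The shares to set beside each list are those of all genes tested, 40.0% higher and 38.6% lower. No list was tested against these shares. Of 10 tested PRC2 partners 4 were higher and 5 lower (median -0.17). The elongin-binding subunit EPOP went from 14.3 ± 0.859 to 49.9 ± 0.568 CPM and PHF1, a Polycomb-like subunit that binds H3K36 methylation, from 9.80 ± 0.858 to 27.6 ± 1.19 CPM. MTF2, another Polycomb-like subunit, fell from 180.4 ± 7.48 to 99.0 ± 4.28 CPM and JARID2, which helps PRC2 bind chromatin, from 65.3 ± 1.19 to 39.4 ± 1.22 CPM (each SD, n = 3). PHF1 and MTF2 moved in opposite directions, a difference that was not tested itself. With GC and length trends removed the log2 fold changes were 1.05 for EPOP, 0.71 for PHF1 and -0.46 for MTF2. In that setting 3 partners were lower, beside 44.9% of all genes tested.

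Of 12 COMPASS partners 3 were higher and 5 lower (median 0.01), beside 40.0% and 38.6% of all genes tested. DPY30 (0.72, SE 0.07) and CXXC1 (0.71, SE 0.07) rose most on the log2 scale. PAXIP1 (-0.58, SE 0.05) and RBBP5 (-0.37, SE 0.06) fell most. CXXC1, the CpG-binding subunit of the SETD1 complexes, had a value of -0.08 with GC and length trends removed, where RBBP5 had -0.12. DPY30 had 0.31 with the length trend removed and 0.66 with GC and length trends removed. Of 10 CoREST and KDM1A partners 1 was higher (RCOR2, 0.46, SE 0.14) and 3 lower, led by PHF21A (-0.63, SE 0.06), a reader of unmethylated H3K4, and ZMYM2 (-0.47, SE 0.06). The deacetylase genes of the complex, HDAC1 (log2 fold change 0.08, SE 0.05, edgeR adjusted p = 0.135) and HDAC2 (log2 fold change 0.04, SE 0.06, edgeR adjusted p = 0.525), named after their values were seen, did not pass. RCOR2 did not pass without KDM4A plasmid replicate 2 (0.38), which left 0 higher, and without control plasmid replicate 2 or 3 the list had 2 higher, with 5 lower in the latter case. With GC and length trends removed, RCOR2 turned to -0.31 and ZMYM2 to 0.38.

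The list named HUSH and SETDB1 partners also holds genes tied to other H3K9 methylation factors, such as ZNF644 and UHRF1. Of its 8 genes 2 were higher and 5 lower (median -0.34), beside 40.0% and 38.6% of all genes tested. ATF7IP, which stabilises SETDB1 in the nucleus, fell by 0.58 (SE 0.06), whereas its paralogue ATF7IP2 went from 12.2 ± 0.623 to 24.6 ± 2.01 CPM (SD, n = 3; log2 fold change 1.00, SE 0.09, edgeR adjusted p = 7.6e-09). ZNF644, a partner of the EHMT enzymes, fell by 0.61, and UHRF1, which links H3K9 methylation to DNA methylation, rose by 0.13. The call of UHRF1 was lost in 11 of 18 settings, among them leaving out control plasmid replicate 1 (0.11) or 3 (0.09) or KDM4A plasmid replicate 1 (0.14) or 2 (0.10), which left 1 higher gene in the list. ATF7IP (0.26), ZNF644 (0.03) and UHRF1 (-0.14) had the opposite sign with GC and length trends removed.

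The cofactors of these enzymes are S-adenosylmethionine (SAM) for methyltransferases and 2-oxoglutarate for JmjC demethylases. Of 14 genes of their metabolism 9 were higher and 2 lower (median 0.22), beside 40.0% and 38.6% of all genes tested. With the length trend removed 3 were higher and 4 lower, beside 32.7% and 44.1% of all genes tested. OGDH, the 2-oxoglutarate dehydrogenase gene, went from 26.9 ± 2.66 to 59.1 ± 3.08 CPM (SD, n = 3). IDH1, a cytosolic enzyme that makes 2-oxoglutarate, went from 123 ± 6.998 to 189 ± 5.20 CPM (SD, n = 3). Its log2 fold change was 0.62, with 0.27 once the length trend was removed and 0.52 with GC and length trends removed. MTAP, of the methionine salvage pathway, fell by 0.57 (SE 0.06). Its value was 0.06 and did not pass with GC and length trends removed.

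Of 19 other lysine methylation enzymes and relatives 4 were higher and 13 lower (median -0.42), beside 40.0% and 38.6% of all genes tested. SETMAR, a SET protein fused to a transposase domain, went from 6.17 ± 0.101 to 14.8 ± 1.497 CPM, and SMYD5 rose by 0.51, with a value of -0.11 once GC and length trends were removed. MECOM, a PRDM family gene, fell from 31.8 ± 2.51 to 12.8 ± 0.726 CPM and SETD5 from 274 ± 19.01 to 122 ± 1.78 CPM (each SD, n = 3). KDM6A, the H3K27 demethylase paralogous to KDM6B and named after its values were seen, fell from 83.4 ± 2.04 to 43.6 ± 1.02 CPM (log2 fold change -0.94, SE 0.05, edgeR adjusted p = 4.2e-11), and by 0.45 with GC and length trends removed.

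Since EZH2 and other members are known to follow the cell cycle, 16 cell cycle markers were read beside them. Of these 5 were higher and 8 lower, beside 40.0% and 38.6% of all genes tested. The median was -0.08, and the summed level was 3685 to 3846 CPM in controls and 3585 to 3717 CPM with the KDM4A plasmid. TYMS (1.16, SE 0.06) and PCNA (0.59, SE 0.07) rose most and TOP2A (-0.59, SE 0.06) and CCNA2 (-0.41, SE 0.06) fell most on the log2 scale. PCNA had a value of 0.10 that did not pass with the length trend removed. With GC and length trends removed PCNA had 0.26 and passed, and TOP2A had 0.00. Over the alternative settings the list had 2 to 6 genes higher and 2 to 12 lower. The part of the cell cycle in the falls of EZH2 and EZH1 was not tested.

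**Figure D5:**
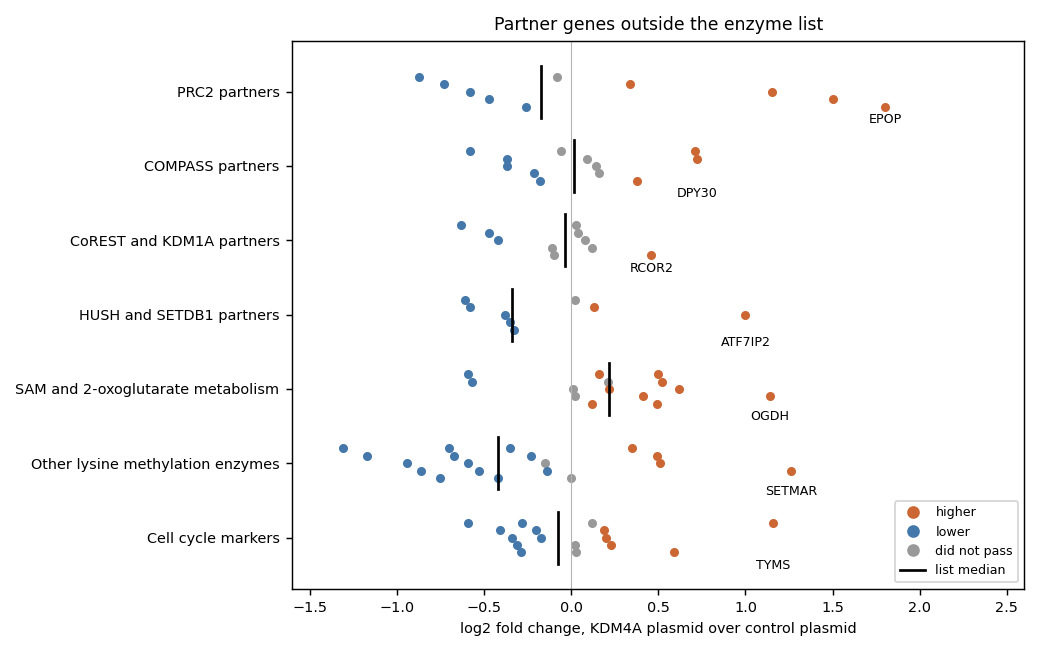
Log2 fold change of each tested gene of the 7 partner lists (points, coloured by call) with the list median (line) and the gene with the highest value in each list named. The medians run from -0.42 for the other lysine methylation enzymes to 0.22 for SAM and 2-oxoglutarate metabolism.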

How the data were processed

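Raw counts per gene for 6 libraries were deposited by the authors as 1 table. The submitters' processing notes name the aligner HISAT2, the counter HTSeq and the build GRCh38, with versions, strand setting and read length not given in the sources used here. Every count column matched a sample label. The whole table was fitted in R 4.3.3 with edgeR 4.0.16 (TMM factors, filterByExpr with a minimum count of 10, robust quasi-likelihood test), which kept 17147 of 60664 genes and 99.8% to 99.9% of counts per library. CPM are on effective library sizes, exon lengths are those of the deposited table, GC is computed from GENCODE 29 transcripts, and the SE is the fold change over the root of F. Alternatives used limma 3.58.1 and DESeq2 1.42.0. The removal of GC and length trends together was chosen after seeing the data.

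The members and lists were chosen with earlier results of these data known. Values per library are given for the KDM4 family, EZH1 and EZH2, members changed by at least 1 on the log2 scale, and in each residue group the largest rise, largest fall and highest CPM per kilobase; from each partner list at most 2 rises and 2 falls are named, with 1 gene not reported here. Protein sequences were not used here.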

Additional observations from a re-analysis of the deposited data

How the results depend on the processing

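Over the 18 alternatives (12 settings and 6 fits that each leave out 1 library), 14 members higher became 9 when a change of 1.2-fold was the null (glmTreat). In that fit 32.7% of all genes tested were higher. Leaving out 1 library gave 11 to 13 higher and 27 to 30 lower. The shares of all genes tested in those fits were 37.8% to 39.6% higher and 36.2% to 38.6% lower. KDM4A kept its direction and call in all 18 (1.79 and 1.85 with the trends removed). The same replicate numbers did not deviate together (r = -0.15, 0.03 and -0.09), and a fit with the replicate number as a block gave 12 higher and 30 lower members. Of 936 pairs of member and setting, 830 kept direction and call, a share that was not computed for all genes.

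Values that turned sign follow as log2 fold changes, and the cause was not tested. With GC and length trends removed they were CBX5 0.19, EHMT1 -0.01, JMJD1C 0.34, KDM1A -0.16, KDM4B -0.29, KMT2C 0.36, KMT5A -0.37, NSD3 0.03, RIOX2 0.12, SETD1A -0.25, SETD2 0.04, SETDB2 0.02, SUV39H1 -0.36, ATF7IP 0.26, CXXC1 -0.08, MTAP 0.06, RCOR2 -0.31, SMYD5 -0.11, TOP2A 0.00, UHRF1 -0.14, ZMYM2 0.38 and ZNF644 0.03. With the length trend alone removed they were CBX3 -0.37, DOT1L 0.23, KDM1A -0.08, KDM2B 0.11, KDM6B 0.07, KMT2B 0.11, KMT2C 0.19, KMT2D 0.07, KMT5A -0.26, SMYD3 -0.08 and SUV39H1 -0.01. With library size alone they were CBX3 -0.04, EHMT1 -0.01, KDM4B -0.04, KMT5A -0.03, KMT5B 0.00 and SETD1A -0.02. With DESeq2 and with RLE factors CBX3 and KDM4B were 0.00, and CBX1 was 0.01 with upper-quartile factors. Leaving out 1 library in turn gave CBX1 -0.08 to 0.05, CBX3 -0.07 to 0.12, KDM2B -0.08 to 0.01, KDM4B -0.05 to 0.04 and SETD1A -0.01 to 0.08, ranges that span both signs for members that did not pass.

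With 3 libraries a group the exact permutation test cannot go below 0.1. RIOX1 rests on 11 control counts, and RIOX1, KDM8 and KDM4D, all low in controls, have the largest SEs of the members (0.30, 0.15 and 0.13).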
